A study of Mus musculus with 2 samples.

Results

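Neat1 and Malat1 are long non-coding RNAs (lncRNAs) that stay in the nucleus and are encoded side by side on mouse chromosome 19. They were taken by their Ensembl identifiers, ENSMUSG00000092274 and ENSMUSG00000092341, and are 2 of the 614 known lncRNAs listed for these livers. The samples were total RNA from C57BL/6 wildtype mice at postnatal week 27, with 1 library from liver on a 60% high fat diet given for 23 weeks (the HFD library) and 1 from liver on a normal diet (the ND library). The labels call the cells hepatocytes, but the extraction was from frozen liver, so the values are read as those of liver tissue. Whether a library holds 1 animal or a pool is not stated, and no other library stands beside either one. Every interval given here therefore covers counting error only.

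Neat1 is the RNA scaffold on which paraspeckles assemble, nuclear bodies that hold RNA-binding proteins such as NONO and SFPQ and that are known to respond to cellular stress. It is made as a long form, which builds the paraspeckle, and as a short polyadenylated form from the same start. Malat1 collects in nuclear speckles, the bodies where splicing factors are stored, and is among the most widely expressed nuclear RNAs. Neither RNA encodes a protein, and both have been studied in the lipid metabolism of the liver. Malat1 and the long form of Neat1 lack an ordinary poly(A) tail: RNase P cuts off a small tRNA-like RNA, and a triple helix of U-rich and A-rich stretches protects the end that remains.

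Neat1 spans chr19:5824708-5845478 and Malat1 chr19:5795690-5802672 (GENCODE M21, GRCm38), both on the minus strand and 22035 bases apart. Neat1 lies upstream in the direction of transcription. Each has 4 annotated transcripts, of which the longest is a single exon over the whole gene, 20771 bases for Neat1 and 6983 bases for Malat1. Of the 606 lncRNAs found in that annotation, Neat1 has the most exon bases and Malat1 ranks at 17 (median 1801 bases), and the longest transcript is a single exon for 53. Neither shares a base with an exon of a coding gene. The Neat1 gene holds 3 short annotated RNAs of the same strand (384 bases together) and Malat1 holds 1 (86 bases). A 453-base model on the other strand, Gm37376, lies inside Malat1, and reads there could belong to either, since strand-specific counting is not stated. The Frmd8os gene on the opposite strand is separated from the Neat1 start by 144 bases and was not analysed here.

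**Figure D1:**
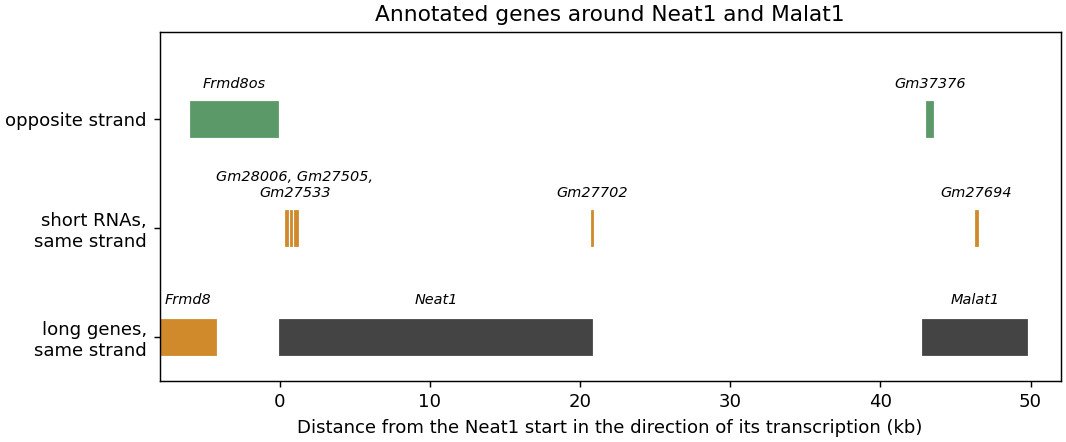
Genes annotated around Neat1 and Malat1, plotted by distance in kb from the Neat1 start along its direction of transcription (boxes are gene spans; Frmd8 is drawn only to the edge of the panel). Neat1 covers the first 20771 bases, Gm27702 follows it directly, and Malat1 begins after a gap of 22035 bases.

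The ends of both RNAs are shown because the RNAs share sequence there. Each line gives 100 bases of the GENCODE M21 transcript, 5′ to 3′, and capitals mark the runs of at least 10 bases that both hold in the same order. In the full-length Malat1 transcript the window is bases 6592 to 6691, and in the long form of Neat1 it is the last 100 bases.
Malat1: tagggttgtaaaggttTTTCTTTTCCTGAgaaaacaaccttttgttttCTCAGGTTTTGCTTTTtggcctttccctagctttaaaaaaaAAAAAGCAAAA
Neat1 long form: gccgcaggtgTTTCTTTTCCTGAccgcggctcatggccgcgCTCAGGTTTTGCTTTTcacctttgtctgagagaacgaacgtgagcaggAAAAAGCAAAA
The 3 shared runs are 13, 16 and 11 bases long, the first and second U-rich and the last A-rich. Searched on the transcribed strand, TTTCTTTTCCTGA was found in transcripts of 21 of 55450 annotated genes, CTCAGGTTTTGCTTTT in 2 and AAAAAGCAAAA in 376. The 2 genes with the second run are Neat1 and Malat1, and no other gene had a transcript with all 3.

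The bases that follow each A-rich tract are shown as the tRNA-like parts. For Malat1 they are bases 6692 to 6749 of its full-length transcript, still inside the annotated gene. For Neat1 they form a separate 56-base gene, Gm27702, at chr19:5824652-5824707. Capitals mark the longest run in common, of 9 bases.
Malat1 after the tract: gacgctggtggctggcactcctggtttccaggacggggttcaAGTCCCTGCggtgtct
Gm27702: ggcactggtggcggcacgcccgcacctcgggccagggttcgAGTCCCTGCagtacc
Aligned end to end, 40 of 58 columns (69.0%) were identical.

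The annotated short form of Neat1 (3004 bases) starts 2 bases after the long form and ends differently. Its last 100 bases are shown because capitals there mark AATAAA, the common polyadenylation signal, which also occurs in the last 100 bases of 217 of 606 listed lncRNAs (35.8%, longest transcript of each).
Neat1 short form: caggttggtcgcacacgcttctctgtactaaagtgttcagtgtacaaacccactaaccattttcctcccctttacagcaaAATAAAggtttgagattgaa
The sources used here do not say whether poly(A) selection or removal of ribosomal RNA was used. The table gives 1 value per gene, so reads of the long and the short form cannot be separated.

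Values are CPM, an lncRNA's reads per 1000000 reads of the known lncRNA table, and whole reads were recovered from them. The HFD library held 193260 reads over all listed lncRNAs and the ND library 241812, with a median of 24 and 30 reads per lncRNA.

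Neat1 was lower in the HFD library than in the ND library. It had 200 reads in the HFD library, or 1033 CPM (95% Clopper-Pearson interval 841 to 1257). In the ND library it had 754 reads, or 3113 CPM (2807 to 3443). The level in the HFD library was thus 3.01-fold lower, with an exact interval of 2.41 to 3.79 from the split of the read pairs (log2 ratio -1.59, -1.92 to -1.27).

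Malat1 was higher in the HFD library. It had 792 reads there, or 4092 CPM (3700 to 4515), against 630 reads, or 2601 CPM (2322 to 2904), in the ND library. Its ratio was 1.57-fold (1.35 to 1.83; log2 ratio 0.65, 0.44 to 0.87), which is more than counting error but less than 2-fold. For both members the interval of the log2 ratio excluded 0. The same held for 126 of the 364 lncRNAs with 20 reads or more in either library (34.6%).

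**Figure D2:**
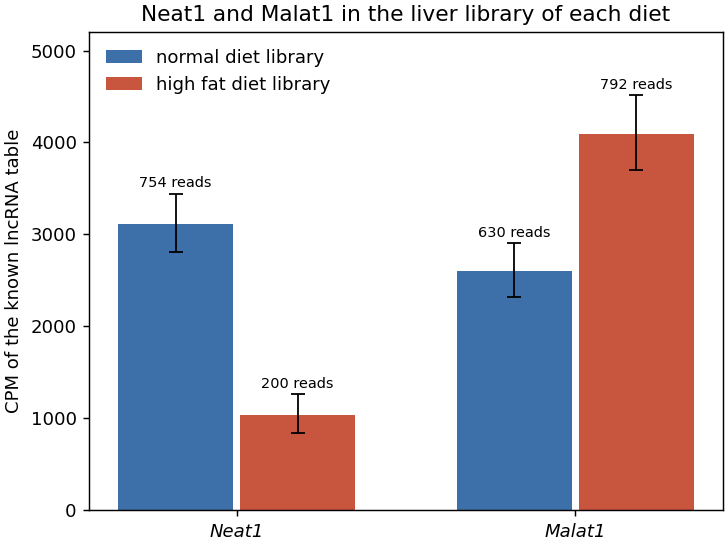
CPM of Neat1 and Malat1 in the library of each diet (bars, 1 library each; whiskers are 95% Clopper-Pearson intervals for counting error; recovered reads are printed above). Neat1 stood at 3113 CPM in the ND library and 1033 CPM in the HFD library, and Malat1 at 2601 and 4092 CPM.

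By rank of CPM in the table, which takes no account of length, Neat1 went from 50 of 614 in the ND library to 119 in the HFD library, and Malat1 from 58 to 43. Neat1 made up 0.311% (0.281 to 0.344) of the table's reads in the ND library and 0.103% (0.0841 to 0.126) in the HFD library. Malat1 made up 0.260% (0.232 to 0.290) and 0.409% (0.370 to 0.451).

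Within a library the pair can be set against each other without any scaling. In the HFD library there were 3.96 reads of Malat1 for each read of Neat1 (3.17 to 4.98), and in the ND library 0.836 (0.717 to 0.973). The ratio was 4.74 times higher in the HFD library (exact conditional interval 3.61 to 6.25). Malat1 supplied 79.8% (76.0 to 83.3) of the reads of both in the HFD library and 45.5% (41.8 to 49.3) in the ND library. Their sum differed less than either member, with 992 reads in the HFD library against 1384 (log2 ratio -0.16, -0.33 to 0.01, an interval that holds 0).

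Against the whole table, an lncRNA was called where its levels were 2-fold or more apart and the library with more had 20 reads or more. Of 364 lncRNAs that reached 20 reads, 58 (15.9%) were called, 28 (7.69%) as higher and 30 (8.24%) as lower in the HFD library. Neat1 was among the 30 and Malat1 was not called. For 6 of the 30, Neat1 included, the whole interval lay beyond 2-fold, and 4 of these 6, again with Neat1, share no base with coding exons. An interval above 0 without a 2-fold ratio, as for Malat1, was found for 42 of the 364 (11.5%). The authors' deposited table marks 42 lncRNAs as significant, among them Neat1 (adjusted p = 4.36e-26) and not Malat1 (adjusted p = 2.32e-08). With 1 library per diet those p-values contain no spread between animals.

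Of 212 lncRNAs with 100 reads or more in either library, only Gm26584, Gm15758 and Gm26608 had a lower log2 ratio than Neat1, whereas Malat1 stood at position 20 from the highest. The median over these 212 was -0.04, and 80% of them lay between -0.72 and 0.63, with Neat1 below and Malat1 just above that range. Among the 71 of them that share no base with coding exons, Neat1 was at position 3 from the lowest and Malat1 at position 9 from the highest, beside a median of -0.08. Since Neat1 is the longest, lncRNAs of at least 5000 exon bases were also set apart. There were 15, with a median log2 ratio of 0.00 and a range from -1.59 (Neat1) to 0.78 (A530083I20Rik), and only Neat1 was called.

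**Figure D3:**
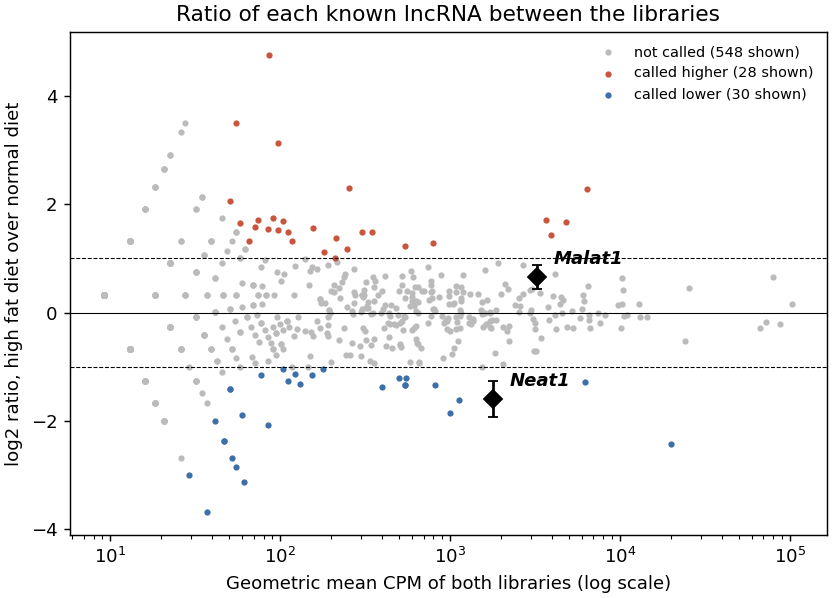
log2 ratio of the HFD over the ND library against the geometric mean CPM (log axis) for the known lncRNAs with reads in both libraries. Points are lncRNAs, coloured by call, dashed lines mark 2-fold, and whiskers on the diamonds are 95% intervals for counting error. Neat1 (-1.59) lies below the lower dashed line and Malat1 (0.65) between the lines.

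Levels of the pair were compared per length. Over all annotated exon bases, Malat1 had 586 CPM per kb and Neat1 49.8 in the HFD library, a ratio of 11.8 (9.44 to 14.8). In the ND library Malat1 had 373 CPM per kb and Neat1 149.9, a ratio of 2.49 (2.13 to 2.89). The median lncRNA had 86.6 and 81.7 CPM per kb. By this measure Malat1 ranked at 121 and 169 of 606 in the HFD and ND libraries, and Neat1 at 345 and 247.

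The order of the pair in the ND library depends on the length given to Neat1. If all its reads came from the 3004-base short form, Neat1 would have 344 CPM per kb in the HFD library and 1036 in the ND library. Malat1 would then be 1.70 times Neat1 in the HFD library and 0.359 times in the ND library. With 1 Neat1 length used for both libraries, the Malat1 to Neat1 ratio was 4.74 times higher in the HFD library under either length. Whether the mix of the 2 forms was the same in both libraries cannot be told. With the long form in the ND library and the short form in the HFD library, the ratios per length would be 2.49 and 1.70.

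**Figure D4:**
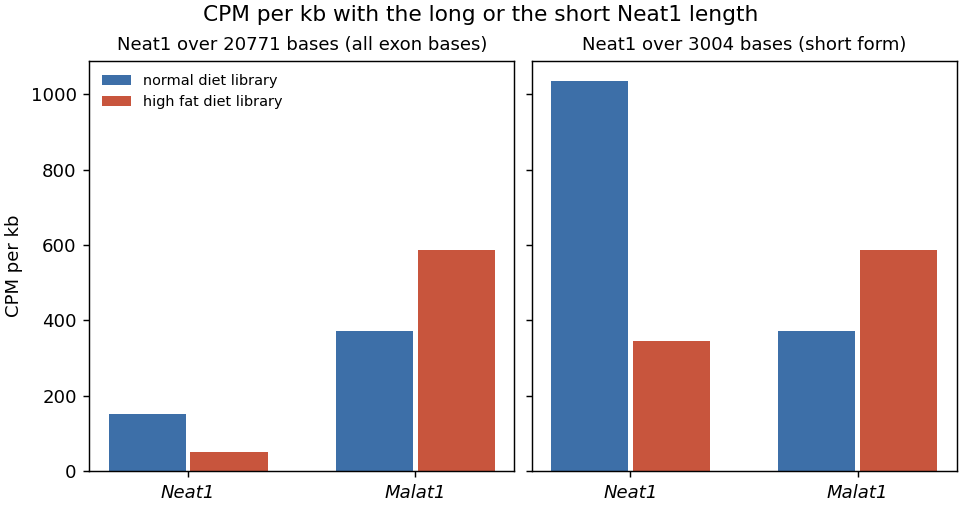
CPM per kb of Neat1 and Malat1 in the library of each diet, with Neat1 divided by its 20771 exon bases (left) or by the 3004 bases of its short form (right); Malat1 is divided by 6983 bases in both panels. In the ND library Neat1 is below Malat1 on the left (149.9 against 373) and above it on the right (1036 against 373).

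Chromosome 19 carried 15 listed lncRNAs, 8 of them with 20 reads or more in either library, and Neat1 was the one called. The listed lncRNA closest to Neat1 was Malat1. Next came Gm10814, 167 kb away and opposite exons of the calpain gene Capn1, with 192 reads in the HFD library against 134 (log2 ratio 0.84, 0.38 to 1.31). Malat1 and Gm10814, on either side of Neat1, were thus both higher in the HFD library, and neither was called. Gm10814 shares 394 of its 1969 exon bases with Capn1, and as strand-specific counting is not stated, reads there could belong to either. Gm17552, Gm26859 and 1500015L24Rik, at 1.65, 4.54 and 14.5 Mb, had 14 reads against 22, 2 against 2 and 18 against 8, with intervals that hold 0. The other 6 with at least 20 reads, beside the pair, had log2 ratios from -0.72 (C330002G04Rik, 474 reads against 974) to 0.84 (Gm10814), with a median of -0.14.

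**Figure D5:**
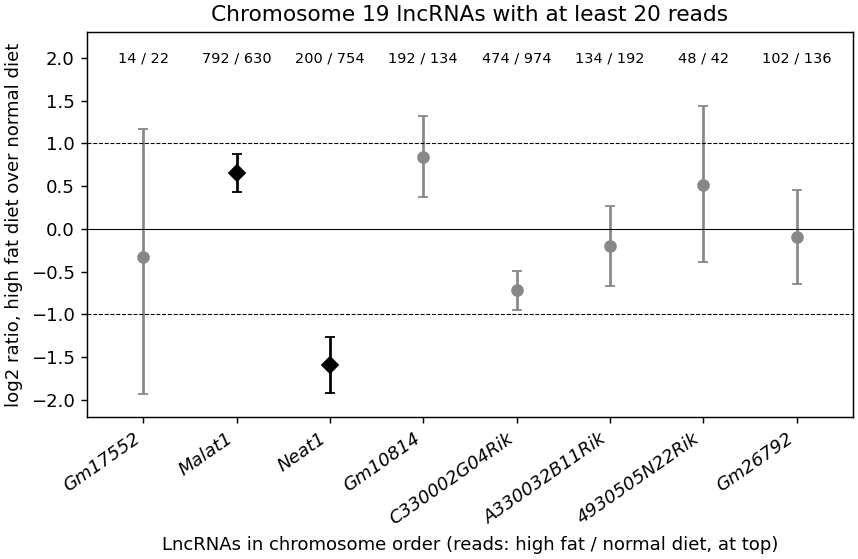
log2 ratio of the HFD over the ND library for the 8 chromosome 19 lncRNAs with 20 reads or more in either library, in chromosome order (whiskers are 95% intervals for counting error, dashed lines mark 2-fold, recovered reads are printed at the top). Neat1 at -1.59 lies between Malat1 at 0.65 and Gm10814 at 0.84.

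The lncRNAs closest to each member in log2 ratio were named among those with at least 100 reads, which is a likeness over 2 libraries. For Neat1 they were Gm26608 (124 reads against 478), D5Ertd615e (48 against 156), 9530052E02Rik (66 against 210), Gm26745 (100 against 316) and Gm42161 (66 against 208), within 0.26 of its log2 ratio. Of these 5, 4 lie on chromosome 5, which holds 16 of the 212 lncRNAs with such reads (7.55%). This was noticed after the values were seen. Those 16 had a median log2 ratio of -0.29 and, apart from these 4, none was called lower or higher. The Irs2 gene, which encodes an insulin receptor substrate, shares exon bases with 9530052E02Rik, and the proteasome assembly gene Psmd9 shares them with Gm26745. For the same lack of a stated strand, reads of these and their coding partners cannot be told apart.

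For Malat1 the closest were 4933416M07Rik (148 reads against 118), 1810014B01Rik (19300 against 15312), 1700086O06Rik (102 against 80), Gm26880 (2486 against 2006) and Gm26735 (128 against 100), within 0.03 of its log2 ratio. All 5 lie on different chromosomes. Gm26880 is the 1 of them with no base shared with coding exons.

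Of 31 names on the list made here for nuclear lncRNAs, whose place in the cell was not measured, 5 were listed. Of the 3 with at least 20 reads, Neat1 and Xist were called lower and Malat1 was not called, beside 8.24% called lower over all 364. The median of the 3 log2 ratios, -1.04 beside -0.01 over all 364, is the value of Xist alone. Xist, the RNA that silences an X chromosome, had 14 reads in the HFD library against 36 (-1.04, -2.54 to 0.29, an interval that holds 0). With 5 reads added to each library its log2 ratio was -0.79, which ends the call. Pvt1, a lncRNA neighbouring Myc, had 18 reads against 2, and Ftx, from the X-inactivation centre, 4 against 12, both under the read minimum.

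The protein partners of these RNAs are coding genes, and none of 22 paraspeckle and 28 speckle protein genes was in the lncRNA table.

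In bulk tissue, fewer cells of a type and less RNA per cell cannot be told apart for either member. Of 10 lncRNAs chosen for hepatocytes, 4 were listed, with summed levels of 703 CPM in the HFD library and 851 CPM in the ND library. C730036E19Rik had 60 reads in each library, which after scaling is a log2 ratio of 0.32 (-0.46 to 1.10). Gm10804 had 66 reads in the HFD library against 126 (log2 ratio -0.61, -1.26 to 0.02). 1810008I18Rik had 8 against 16 and Platr4 had 2 against 4. Of 11 lncRNAs chosen for other liver cells, 3 were listed, at 289 and 396 CPM in sum. They were Gm12840 with 46 reads against 88, Mir155hg with 8 against 2 and Lncpint with 2 against 6. Whether the lncRNAs of either list are particular to the cells they were chosen for was not tested. Only C730036E19Rik, Gm10804 and Gm12840 reached 20 reads, and 0 of these 3 were called, beside 15.9% over all 364. The other 4 had too few reads to be called at any ratio. No coding marker (13 looked for, from Alb to Krt19) is part of an lncRNA table, so the labelled cell type could not be checked against its defining genes. The part of cell makeup in the ratios of Neat1 and Malat1 was not tested.

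Exact copies in annotated transcripts of other genes touch little of either RNA. Copies elsewhere in the genome, or with mismatches, were not searched for. Exact runs of 50 bases shared with transcripts of other genes on either strand covered 132 of the 6983 bases of Malat1 (1.89%) and 190 of the 20771 bases of Neat1 (0.915%), although many genes share these short stretches. Malat1 is 42.5% G and C and Neat1 47.3%, beside a median of 47.3% over the listed lncRNAs. No numbered lncRNA of the second deposited table (272 entries) had the reads of Neat1 or those of Malat1 in both libraries.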

How the data were processed

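HISAT2, HTSeq, DESeq and genome build mm8 are named in the submitters' processing notes. What each tool did, its version, the annotation and whether counting used strand: not given in the sources used here. Values in the deposited tables are CPM, scaled to the reads of each table. The deposited ratio and log2 columns compare the high fat diet with the normal diet library, and the authors' p-values are printed only as theirs. Dividing each CPM value by the smallest of its column (5.17 and 4.13 CPM) gave whole reads for 100% of values (tolerance 1e-06). All were even except values of 1, which were taken as 0, so intervals use pairs of 2 reads. Scaling totals were 193538 and 242194 reads.

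Of 614 identifiers, 606 matched GENCODE M21 (GRCm38), the source of names, positions, lengths and sequences. No position was read from the files. With 1 library per diet there is no test of diet and no count model could be fitted. Ratios have exact 95% intervals (SciPy 1.17.1), run on simulated read pairs that held counting error only. That run cannot speak to spread between animals or libraries. Members, lists and rules were chosen with earlier results of these data known. Named lncRNAs are both members, listed members of the nuclear, hepatocyte and other-cell lists, the 5 nearest on chromosome 19, the 5 closest in log2 ratio to each member and those overlapping paraspeckle or speckle protein genes, for which the result is not reported here. Others (Gm26584, Gm15758, A530083I20Rik, C330002G04Rik) were named after their values were seen. Alternatives covered scaling, added reads, read minimum, fold, length and overlap with coding exons.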

Additional observations from a re-analysis of the deposited data

How the results depend on the processing

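The log2 ratio of Neat1 lay between -1.60 and -1.50 and that of Malat1 between 0.64 and 0.75 over the other scalings (median ratio, and totals without the 5 most abundant lncRNAs, without lncRNAs sharing at least 50 coding exon bases, or without the pair) and with 2 or 5 reads added. All 16 alternatives of these ratios and of their quotient stayed within the counting interval of the reported value. The number of lncRNAs called, 58, was 146 without a read minimum, 19 with 100 reads and 124 at 1.5-fold. Without lncRNAs sharing coding exon bases it was 38. With an exact binomial test of read pairs (Benjamini-Hochberg under 0.05) and the 2-fold rule kept, it was 31, and 81 lncRNAs passed the test alone. That test compares these libraries rather than diets. Each of these settings changes by construction what can be called. Neat1 was called lower under all of them. Malat1, at 1.57-fold, was called higher only at 1.5-fold, as each other call kept the 2-fold rule. Per length, the ratio of Malat1 to Neat1 was 5.81 (high fat diet) and 1.22 (normal diet) with the shortest transcript of each, and 1.70 and 0.359 with the length of the Neat1 short form, which reverses the order in the normal diet library. The binomial test, the short-form length, the count without coding exon overlaps and the total without the pair were chosen after the data were seen. No paired analysis was possible because there is 1 library for each diet, and for the same reason none could be left out.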
